A study of Mus musculus with 10 samples.

Results

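Direct RNA reads were examined on the copies of ribosomal protein genes, that is, on genes whose symbol starts with Rpl or Rps and carries "-ps". The members were chosen by their name alone: every alignment that the table classes as mRNA counted when its poly(A) tail estimate had passed the quality tag of the tail caller, whatever biotype the gene had. A total of 85 genes of the 13647 with such alignments met this rule, and they held 36735 of 2132085 alignments (1.72%). The 85 copies belonged to 35 ribosomal protein genes, here called parents, and all 35 parents had reads of their own. For comparison, the 82 genes for cytoplasmic ribosomal proteins held 619764 alignments, and 24 other genes named with "-ps" held 3009.

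Ribosomal proteins are the protein subunits of the small (Rps) and large (Rpl) ribosomal subunits, and their mRNAs are among the most abundant of a growing cell. Such mRNAs are often reverse transcribed and inserted elsewhere in the genome, which leaves copies without introns and often with a genomic run of A at the 3′ end, a trace of the poly(A) tail of the mRNA that was copied. The parent mRNAs are TOP mRNAs, named after the oligopyrimidine motif at their 5′ terminus, and Larp1 is an RNA-binding protein that recognises this motif and the cap and is known to act on the translation, stability and tails of TOP mRNAs.

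The cells were P19, a mouse embryonal carcinoma line that is pluripotent, and no other line was used. Control cells (siCtl) received a pool of non-targeting siRNAs and the others (siLarp1) a single siRNA against Larp1, so that an effect of that 1 siRNA on other targets and the loss of Larp1 cannot be told apart. Cells were collected at 24 h, with 3 siCtl and 3 siLarp1 libraries, or at 48 h after a further transfection at 24 h, with 2 siCtl and 2 siLarp1 libraries. The study's methods call the libraries of a group biological replicates. Each treatment had a pool of its own at 24 h, where an effect of the pool and one of the siRNA cannot be told apart, whereas 1 pool held all 4 libraries of 48 h. The table names the libraries 19, 21 and 22 at 24 h and 24 and 25 at 48 h in both treatments, and these numbers are used as names because they were not tied to the numbered replicates of the labels.

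Kept alignments ranged from 117973 to 441758 per library, and each siLarp1 library of 24 h was shallower than each siCtl library of 24 h. Levels are given in RPM, the alignments scaled to a library total of 1000000 kept alignments. Larp1 stood at 72.5, 80.8 and 81.5 RPM in the siCtl libraries and at 31.9, 42.8 and 18.3 in the siLarp1 libraries at 24 h. At 48 h it stood at 161 and 119 in siCtl and at 17.7 and 23.9 in siLarp1, so the groups did not overlap at either time. These levels rest on 19 to 36 Larp1 alignments per siCtl library and only 3 to 6 per siLarp1 library. All 8 markers of pluripotent cells were detected in each group, with a summed level of 3123 to 4175 RPM. The 5 neuronal markers summed to 183 to 351, with Neurod1 at 0 throughout and Map2 at 0 in siCtl at 48 h. The 4 markers of primitive endoderm summed to at most 6.09, with Sox17 and Afp at 0 throughout. In bulk RNA, fewer cells with a transcript and less of the transcript per cell cannot be told apart.

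Reads were concentrated on a few copies. The 7 copies with at least 30 reads held 99.2% of all copy alignments, the other 78 held 277 alignments between them, with 1 to 22 reads each, and 38 copies had a single read. The 7 copies were Rps2-ps10 with 18734 reads, Rps26-ps1 with 7196, Rpl9-ps6 with 4148, Rpl10-ps3 with 3285, Rps13-ps1 with 1991, Rpl36-ps12 with 868 and Rps18-ps5 with 236. Most copy alignments were not annotated as pseudogenes: 4 copies with the biotype processed transcript held 70.6% of them and 4 with the biotype protein coding 20.9%. The 76 copies annotated as processed pseudogenes held 8.39%, and the single transcribed processed pseudogene 0.101%. Between 13 copies (siLarp1 library 25 of 48 h) and 42 copies (siCtl library 22, the deepest) were seen per library.

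The copies are close in sequence to their parents. Of 83 copies with a transcript in GENCODE vM21, which all lie at the place the deposited names give in the same build (GRCm38), 82 have a single exon. Identity with the parent transcript ran from 81.3% to 100%, with a median of 98.4%. An open reading frame as long as that of the parent and starting at the parent's start codon was found in 44 of the 83, among them all 7 copies with at least 30 reads. A long read can be placed on a copy or on its parent only by the few aligned bases at which they differ, or by ends without a match in the other. The stretches below show 5 of the 7 copies beside their parents over 60 bases of the coding region, 5′ to 3′ on the RNA strand, with the differing bases in capitals (GENCODE vM21 transcripts, GRCm38). Rps26-ps1 (chr8:107439503-107439562, minus strand, codons 1 to 20), Rpl36-ps12 (chr6:108140423-108140482, minus strand, codons 1 to 20) and Rps18-ps5 (chr13:28257636-28257695, plus strand, codons 1 to 20) are shown from the start codon, Rpl9-ps6 (chr19:32466286-32466345, minus strand, codons 69 to 89) and Rps13-ps1 (chr8:87048089-87048148, plus strand, codons 124 to 143) farther in.
Rps26-ps1: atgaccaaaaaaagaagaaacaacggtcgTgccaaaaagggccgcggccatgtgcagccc
Rps26: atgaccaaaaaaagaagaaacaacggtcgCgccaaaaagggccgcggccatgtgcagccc
Rpl9-ps6: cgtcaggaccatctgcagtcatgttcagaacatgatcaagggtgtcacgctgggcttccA
Rpl9: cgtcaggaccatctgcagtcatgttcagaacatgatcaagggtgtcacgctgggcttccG
Rps13-ps1: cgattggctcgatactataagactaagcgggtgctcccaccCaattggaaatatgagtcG
Rps13: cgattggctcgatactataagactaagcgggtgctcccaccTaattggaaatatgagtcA
Rpl36-ps12: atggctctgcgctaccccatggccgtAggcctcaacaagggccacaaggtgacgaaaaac
Rpl36: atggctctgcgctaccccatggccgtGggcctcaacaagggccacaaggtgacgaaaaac
Rps18-ps5: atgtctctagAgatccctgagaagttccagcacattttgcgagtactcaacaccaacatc
Rps18: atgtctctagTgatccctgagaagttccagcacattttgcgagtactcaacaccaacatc

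Each of these windows holds 1 or 2 differing bases. Over the whole aligned length, Rps26-ps1 has 4 substitutions in 429 bases, Rpl9-ps6 2 in 695 with 1 gap of 4 bases, Rps13-ps1 3 in 524, Rpl36-ps12 3 in 375 and Rps18-ps5 8 in 549 with 1 gap of 7 bases. Rpl10-ps3 has none in 740 bases. At the 5′ end, 8 to 252 bases of the annotated parent transcript have no match in 6 of the copies, whereas Rps18-ps5 has 58 bases of its own there. At the 3′ end the same 6 copies close with 11 to 28 bases that have no match in the parent and are mostly A, and in Rps13 the last 5 bases likewise have no match in the copy. The last 30 bases of 3 of them are shown, 5′ to 3′ on the RNA strand, with the closing run of A in capitals. They are Rps26-ps1 (chr8:107439131-107439160, minus strand), Rps13-ps1 (chr8:87048197-87048226, plus strand) and Rpl36-ps12 (chr6:108140120-108140149, minus strand).
Rps26-ps1: gttgtactttAAAAAAAAAAAAAAAAAAAA
Rps13-ps1: ataaaatcactttgagtAAAAAAAAAAAAA
Rpl36-ps12: taaaagatggttcctacAAAAAAAAAAAAA

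The run of A at the annotated end is 20 bases in Rps26-ps1, 20 in Rpl9-ps6, 29 in Rpl10-ps3, and 13 each in Rps13-ps1 and Rpl36-ps12. In Rps2-ps10 only 2 A close the transcript, but 29 of its last 30 bases are A, against 14 in Rps2. Rps18-ps5 has no such end: it stops 4 bases before the end of the parent, and 9 of its last 30 bases are A. A closing run of at least 10 A was present in 5 of 86 copy transcripts (5.81%), which carried 47.6% of the copy alignments. Of the ribosomal protein transcripts, 4 of 355 had one (1.13%), with 1.30% of the alignments. Among the other genes named with "-ps" it was 5 of 30 (16.7%), with 80.1% of the alignments, and over all transcripts with reads 217 of 28048 (0.774%), with 2.17%.

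The whole copies lie as follows (GRCm38, single exons). Rps26-ps1 spans chr8:107439131-107439579 on the minus strand, opposite to Wwp2. Rpl9-ps6 spans chr19:32465865-32466578 and Rpl10-ps3 spans chr9:50344201-50344968, both on the minus strand with no gene annotated over them. Rps13-ps1 spans chr8:87047689-87048226 and Rps18-ps5, which the vM21 annotation calls Gm11361, spans chr13:28257528-28258134, both on the plus strand. Rpl36-ps12 spans chr6:108140120-108140509 on the minus strand and overlaps Sumf1 on the same strand. Whether any of its reads came from a Sumf1 precursor was not tested. Rps2-ps10 is 965 nt long and spans chr18:61259008-61259972 on the minus strand, opposite to Pde6a, with 14 substitutions against Rps2 in 939 aligned bases.

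Each read is 1 RNA molecule read from its 3′ end, so levels in RPM count molecules and were not divided by length. Rps2 is a protein of the small subunit near the entry of the mRNA channel. Its copy Rps2-ps10 stood at 8481, 8549 and 8874 RPM in siCtl and 8977, 8844 and 9487 in siLarp1 at 24 h, and at 8053 and 8097 in siCtl and 9437 and 9563 in siLarp1 at 48 h. Rps2 itself stood at 196 ± 48.1 (SD, n = 10 libraries), far below the copy in every library. The siLarp1 libraries of 48 h lay above the siCtl libraries of 48 h for Rps2-ps10, while at 24 h the ranges overlapped.

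Rps26, a small subunit protein near the exit of the mRNA channel, also had fewer reads than its copy. Rps26-ps1 stood at 3315, 3524 and 3651 RPM in siCtl and 3711, 3398 and 4043 in siLarp1 at 24 h, and at 3230 and 2958 in siCtl and 2785 and 2439 in siLarp1 at 48 h. Rps26 stood at 1364 ± 222 (SD, n = 10), and the copy was higher in every library.

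For Rpl9, a large subunit protein, copy and parent were closer. Rpl9-ps6 stood at 1756, 2178 and 2012 in siCtl and 1883, 2134 and 1808 in siLarp1 at 24 h, and at 1755 and 1934 in siCtl and 1910 and 1777 in siLarp1 at 48 h, against 1453 ± 191 (SD, n = 10) for Rpl9. Rpl10-ps3, the copy of a large subunit protein that joins late in ribosome assembly, ranged from 1387 to 1691 over the 10 libraries, against 1769 to 2250 for Rpl10, with no overlap. Rps13-ps1 ranged from 741 to 1142 (Rps13 from 1626 to 2409), Rpl36-ps12 from 280.1 to 671 (Rpl36 from 2809 to 3543) and Rps18-ps5 from 73.1 to 221 (Rps18 from 2353 to 3566). The order of the 7 copies by mean level was that of their read totals. No copy overlapped its neighbour in this order over the 10 libraries, although Rpl9-ps6, at 1755 or more, lay little above Rpl10-ps3, at 1691 or less.

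**Figure D1:**
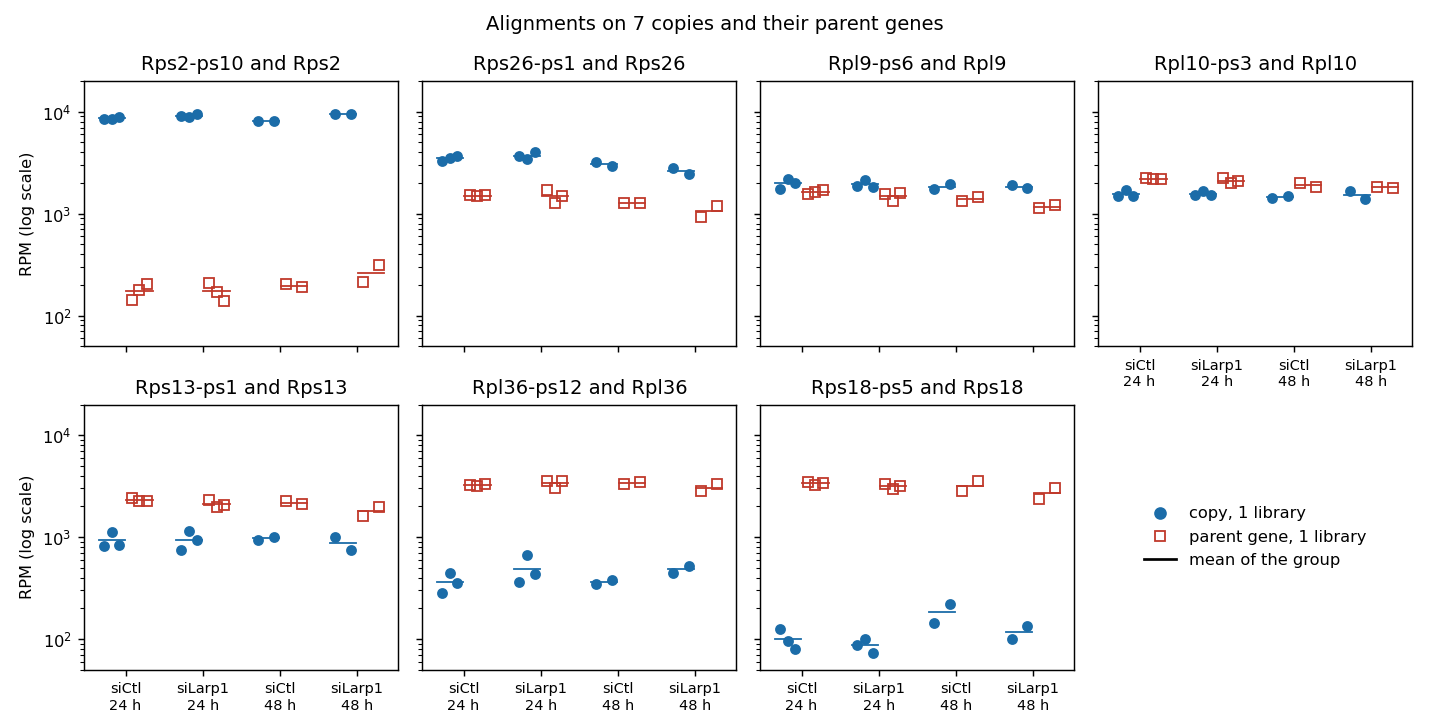
Levels in RPM (log scale) of the 7 copies with at least 30 reads (filled circles) and their parent genes (open squares), by group; each symbol is 1 library and each bar a group mean. Rps2-ps10 stood at 8053 to 9563 against 140.05 to 311 for Rps2, whereas Rps18-ps5 stood at 73.1 to 221 against 2353 to 3566 for Rps18.

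Taking a family as a parent with all its copies, the copies held 97.9% of the reads of the Rps2 family, 70.7% of the Rps26 family, 56.2% of the Rpl9 family, 42.5% of the Rpl10 family, 30.1% of the Rps13 family, 11.1% of the Rpl36 family and 3.34% of the Rps18 family. In the other 28 families the copies held under 1%, down to 0.0113%. The number of copies was no guide to this share: the Rps12 family has 10 copies, the most of any family, and they held 27 reads against 14136 on Rps12 (0.191%). Copies made up 5.26% to 6.38% of the alignments on copies and ribosomal protein genes together, and Rps2-ps10 alone 48.2% to 57.4% of the copy alignments of a library.

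How firmly a read was placed differed between the copies. Mapping quality, the score the aligner gives from 0 to 60 to the place it chose, was at least 10 for 83.9% ± 1.29 of the Rps2-ps10 alignments (SD, n = 10 libraries) and for 71.7% ± 2.00 of those on Rps26-ps1. It was at least 10 for 15.5% ± 3.00 on Rpl9-ps6, 14.5% ± 5.18 on Rpl36-ps12, 12.3% ± 2.01 on Rpl10-ps3, 4.46% ± 4.81 on Rps18-ps5 and 4.35% ± 2.08 on Rps13-ps1. The median quality of these last 5 copies was 1 to 2.5 in each library, which is the score of a read with another place that fits nearly as well. Low scores were also frequent on most of the parents: 13.6% ± 2.53 of the Rpl9 alignments, 6.49% ± 1.04 of those on Rpl10 and 5.64% ± 0.899 of those on Rps18 reached 10, as did 20.2% ± 1.66 on Rps26 and 30.9% ± 2.87 on Rps13. Rpl36 had 64.0% ± 2.88. On Rps2, pooled over the libraries, 31.9% of the alignments had a quality of 0 and 28.4% one of 1 to 9. Over all copies together 57.0% to 63.1% of the alignments of a library reached 10, against 68.0% to 71.1% for the ribosomal protein genes. The table usually gives only 1 place per read: 0.338% of the copy alignments came from reads with more than 1 alignment. Levels and tails of the 5 copies with low quality are therefore those of reads the aligner put there. Alignments on Rps2-ps10 stopped in the median 26 bases before its end, where its 26 bases without a match in Rps2 begin. Only 1.83% passed the middle of these. Alignments on Rps26 began in the median at base 259, and its first 252 bases have no match in Rps26-ps1. Whether reads on Rps2-ps10 and Rps26-ps1 came from the copy or the parent was not tested.

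**Figure D2:**
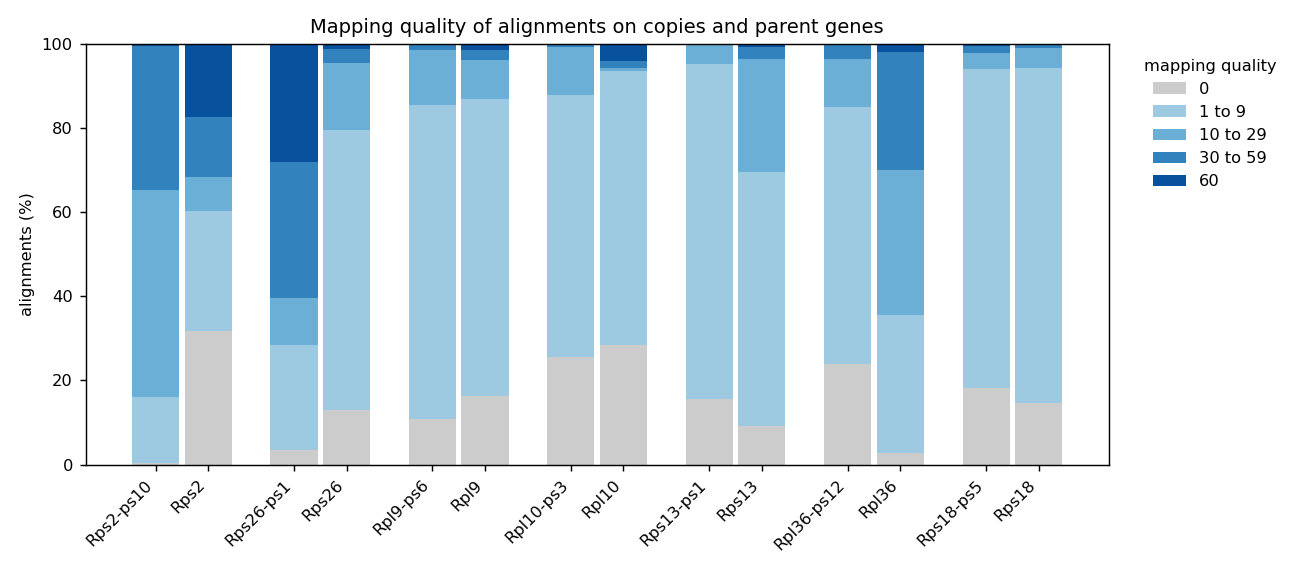
Share of alignments (%) in 5 classes of mapping quality for each of the 7 copies and, beside it, its parent gene, over the 10 libraries together. Rps2-ps10 and Rps26-ps1 have most of their alignments at 10 or above, whereas a library mean of 15.5% of the Rpl9-ps6 and 4.35% of the Rps13-ps1 alignments reach 10.

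Tails on the copies were compared with tails on the parent within each library, by an exact sign-flip permutation test over the 10 libraries (two-sided, smallest possible p of 0.00195) adjusted over the 11 pairs of a "-ps" gene and its parent with at least 30 reads on both. Shorter median tails on the reads placed on the copy were the rule. Of the 11 pairs 8 passed the test for the median tail (72.7%), and 6 of the 7 ribosomal protein copies were among them, each with the shorter tail on the copy.

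The gap was widest for Rps13, a small subunit protein. Rps13-ps1 had median tails of 76.7, 72.5 and 67.6 nt in siCtl and 63.1, 64.0 and 58.1 nt in siLarp1 at 24 h, and of 70.6 and 69.7 nt in siCtl and 63.4 and 75.5 nt in siLarp1 at 48 h. Rps13 ranged from 91.6 to 108 nt, with no overlap. The difference within a library was -31.5 ± 6.56 nt (SD, n = 10), lower in 10 of 10 libraries (exact permutation p = 0.00195, adjusted p = 0.00358).

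Rpl9-ps6 came next. Its median tails ranged from 72.8 to 89.9 nt, against 102 to 116 nt for Rpl9, and the difference was -29.3 ± 6.24 nt (SD, n = 10). Rpl36-ps12 had 79.0 ± 6.82 nt and Rpl36 95.9 ± 3.45 nt, a difference of -16.9 ± 6.83 nt. For Rps26-ps1 the tails were 92.2 ± 3.62 nt and for Rps26 101 ± 5.23 nt, a difference of -8.47 nt, and for Rpl10-ps3, whose aligned sequence is identical to that of Rpl10, they were 99.0 ± 4.37 nt against 106 ± 3.25 nt, a difference of -7.32 ± 3.99 nt. These 4 copies were lower in 10 of 10 libraries, with the same exact permutation p of 0.00195 and adjusted p of 0.00358. Rps18-ps5, with 11 to 41 reads per library, was lower than Rps18 in 9 of 10 libraries by 15.0 nt on average (82.1 ± 11.6 against 97.1 ± 4.19 nt, exact permutation p = 0.00977, adjusted p = 0.0134). In reads with a barcode confidence of at least 0.9 this call was lost (-10.1 nt, exact permutation p = 0.146, adjusted p = 0.146). Rps2-ps10 was the exception: its tails of 101 ± 4.61 nt and those of Rps2 of 97.9 ± 7.72 nt differed by 2.61 ± 6.64 nt, higher in 6 of 10 libraries (exact permutation p = 0.242). The medians of Rps2 rest on 23 to 91 reads per library.

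At a mapping quality of 0, pooled median tails of copy and parent were 78.8 and 80.8 nt for Rps13 and 98.1 and 95.1 nt for Rpl9. They were 107 and 109 nt for Rpl10, 83.9 and 86.7 nt for Rpl36 and 83.3 and 87.65 nt for Rps18. For Rps26 they were 102 and 95.7 nt, and for Rps2 105 and 102 nt. The part of mapping quality in the differences was not tested. Restricting both genes of a pair to alignments of quality 10 or more left 9 pairs, 6 of them copies of ribosomal protein genes, and 6 of the 9 passed the test. The difference was then -46.5 nt for Rps13-ps1, -39.5 nt for Rpl9-ps6, -19.9 nt for Rpl10-ps3, -14.5 nt for Rpl36-ps12 and -12.0 nt for Rps26-ps1, all past the threshold. For Rps2-ps10 the difference was 6.93 nt, which did not pass (exact permutation p = 0.309). Only 93 alignments on Rps13-ps1 reached this quality. Rpl10-ps3 has no differing base in its aligned part, so there the quality can come only from the ends. Its pooled median tails were 107, 101 and 83.15 nt at qualities of 0, 1 to 9 and 10 to 29. Those of Rps13 were 80.8, 96.65 and 115 nt. Tails thus went with quality on these genes, and the restriction is no independent check. In the 5 siCtl libraries alone no adjusted p can pass, since the smallest exact p is 0.0625. There the differences ran from -27.3 nt for Rps13-ps1 to -7.62 nt for Rps26-ps1 in the 6 copies that passed over all 10 libraries. For Rps2-ps10 the difference in siCtl was 4.29 nt.

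**Figure D3:**
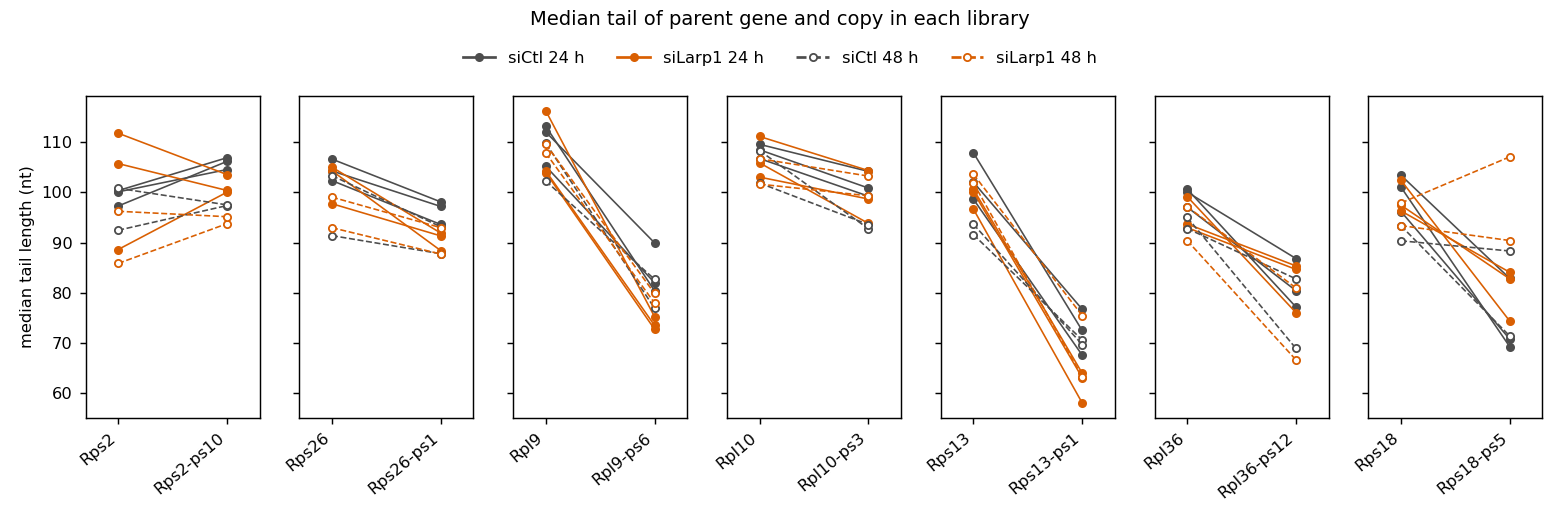
Median tail length (nt) of the parent gene (left) and the copy (right) in each library, joined by a line, for 7 pairs; colour gives the siRNA and line style the time point. The lines fall in 10 of 10 libraries for 5 copies and in 9 of 10 for Rps18-ps5, but not for Rps2-ps10.

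The tails also differed with the place where the alignment to the copy stopped. Alignments were split by whether they reached 5 or more of the extra A-rich bases of the copy or fewer than 5, the latter including those that reached none. Reads that reached 5 or more of the extra bases made up 91.1% of the alignments on Rpl36-ps12, 91.0% on Rps13-ps1, 85.9% on Rpl9-ps6, 69.8% on Rps26-ps1, 58.8% on Rpl10-ps3 and 16.2% on Rps2-ps10. Their median tails, pooled over the libraries, were 65.5 nt against 102 nt for the reads that reached fewer than 5 in Rps13-ps1, 76.7 against 110 nt in Rpl9-ps6, 78.2 against 112 nt in Rpl36-ps12, 85.2 against 111 nt in Rps26-ps1, 90.9 against 112 nt in Rpl10-ps3 and 94.4 against 103 nt in Rps2-ps10. The reads that reached 5 or more had the shorter tails in 10 of 10 libraries for 5 of these copies, and for Rpl36-ps12 in 7 of the 9 libraries that could be compared. The reads that reached fewer than 5 had median tails of 102 to 112 nt, and the means of their parents were 95.9 to 108 nt. No test was run, since the place where an alignment stops and the tail come from the same read. The part of the alignment end in the copy-to-parent difference was not tested. Rps2-ps10, whose reads mostly reached fewer than 5 extra bases, differed from its parent by 2.61 nt, while Rps18-ps5, which has no extra bases, differed from Rps18 by -15.0 nt. Its alignments began at base 294.5 of 607 in the median, against base 26 of 560 for Rps18.

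**Figure D4:**
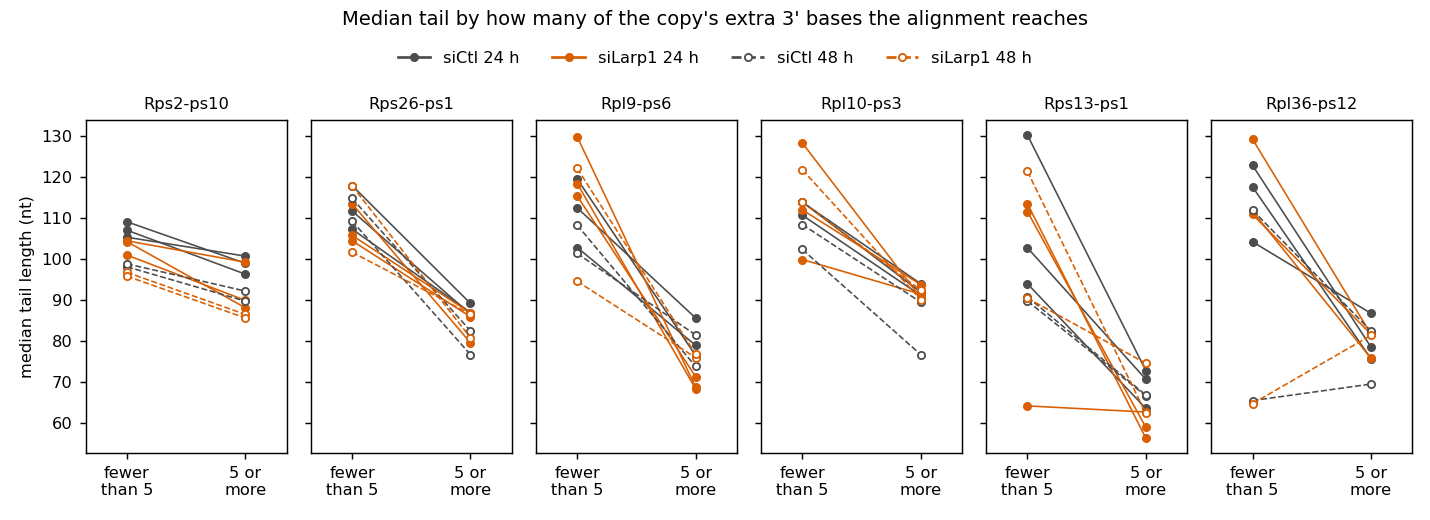
Median tail length (nt) of reads on 6 copies whose alignment reaches fewer than 5 (none included) or 5 or more of the extra 3′ bases of the copy, joined by a line for each library with at least 3 reads in both classes. Reads that reach 5 or more have shorter tails in 10 of 10 libraries for 5 copies and in 7 of 9 for Rpl36-ps12.

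Tails under 30 nt, the class that the study follows as short tails, were more frequent on 2 of the 7 copies than on the parent. Of the 11 pairs tested, 3 passed (27.3%), the third being Gpx4-ps2. Rps13-ps1 had 7.99% ± 3.07 short tails (SD, n = 10) and Rps13 2.82% ± 0.950, higher on the copy in 10 of 10 libraries (difference 5.17 percentage points, exact permutation p = 0.00195, adjusted p = 0.0107). Rpl36-ps12 had 4.70% ± 4.02 and Rpl36 1.93% ± 1.01, also higher in 10 of 10 libraries (2.77 percentage points, same exact permutation p and adjusted p). In reads of quality 10 or more neither passed: the difference was 5.99 percentage points for Rps13-ps1 (adjusted p = 0.375) and -0.0276 for Rpl36-ps12 (adjusted p = 1.00, exact permutation test). In reads with a barcode confidence of at least 0.9, Rpl36-ps12 lost its call (exact permutation test, adjusted p = 0.103) and Rpl9-ps6 gained one (1.47 percentage points, adjusted p = 0.0358). Rpl9-ps6 (3.70% against 2.61%, adjusted p = 0.185), Rps18-ps5 (5.81% against 3.67%, adjusted p = 0.328), Rpl10-ps3 (2.61% against 2.23%, adjusted p = 0.430), Rps26-ps1 (2.67% against 2.47%, adjusted p = 0.748) and Rps2-ps10 (0.394% against 1.93%, adjusted p = 0.185) did not pass the same exact permutation test over 10 libraries. The share of Rps2 rests on 0 to 2 short reads per library.

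The share of short tails was then compared between siLarp1 and siCtl, the comparison that asks whether lowering Larp1 shortens tails. A logistic model with extra spread between libraries was fitted to all genes with at least 30 reads at a time point. At 24 h it called 8 of 4828 genes (0.166%) and at 48 h 11 of 2725 (0.404%). Of the 7 copies tested at each time, none was called, while 4 had an unadjusted p under 0.05 at 24 h and 4 at 48 h. The same held for 60 and 51 of the 82 ribosomal protein genes, and for 190 and 206 of all genes tested. All of the 8 calls at 24 h and 10 of the 11 at 48 h were ribosomal protein genes, among them the parent Rpl36 at 24 h (log2 odds 1.71, SE 0.39, adjusted p = 0.0325). The estimates of the copies were above 0 for 6 of 7 at 24 h and 7 of 7 at 48 h, with a median log2 odds of 0.86 and 1.05. For the 82 ribosomal protein genes the median was 0.86 and 0.90, with 79 and 81 above 0, and over all genes it was 0 at both times. Of all genes, 1877 lay above 0 and 2105 below it at 24 h, and 1335 and 1004 at 48 h, the others being at 0.

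Rps26-ps1 had 2.09%, 1.19% and 1.86% short tails in siCtl and 1.94%, 2.52% and 4.22% in siLarp1 at 24 h, and 2.36% and 1.82% in siCtl and 5.73% and 2.94% in siLarp1 at 48 h. At 24 h siLarp1 library 19 lay within the siCtl range and the other two above it, and at 48 h the groups did not overlap. The log2 odds were 0.86 (SE 0.30, adjusted p = 0.569) and 1.20 (SE 0.42, adjusted p = 0.243).

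Rpl9-ps6 had 1.88%, 1.92% and 2.36% in siCtl and 1.27%, 5.35% and 6.06% in siLarp1 at 24 h, with siLarp1 library 19 below all of siCtl. At 48 h it had 3.38% and 2.79% in siCtl and 5.26% and 6.73% in siLarp1, without overlap. Its log2 odds were 1.11 (SE 0.36, adjusted p = 0.419) at 24 h and 0.99 (SE 0.44, adjusted p = 0.547) at 48 h.

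Rps13-ps1 had 4.02%, 5.43% and 8.38% in siCtl and 4.30%, 11.3% and 12.9% in siLarp1 at 24 h, and 6.31% and 6.99% against 10.7% and 9.68% at 48 h. Rpl10-ps3 had 1.78%, 1.65% and 1.68% in siCtl against 3.18%, 3.00% and 2.77% in siLarp1 at 24 h, and 1.78% and 2.16% against 4.66% and 3.45% at 48 h. Its siLarp1 libraries lay above its siCtl libraries at both times (log2 odds 0.81, SE 0.44, adjusted p = 0.969 at 24 h, and 1.05, SE 0.59, adjusted p = 0.670 at 48 h). An exact permutation test over the libraries of 24 h gave p = 0.1 for Rpl10-ps3 and for Rps18-ps5. This is the smallest value that 3 against 3 libraries allow, and 2 against 2 cannot go below 0.33. Rps18-ps5 had 5.26%, 5.88% and 5.71% in siCtl and 9.09%, 7.14% and 16.7% in siLarp1 at 24 h, from 1 or 2 short reads per library.

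Rpl36-ps12 had 2.35%, 1.86% and 2.55% in siCtl and 2.22%, 8.51% and 4.17% in siLarp1 at 24 h, and 4.88% and 1.41% against 14.5% and 4.55% at 48 h. These shares rest on 41 to 161 reads per library, and the 14.5% is 11 of 76 reads (95% Wilson interval 8.28% to 24.1%). Rps18-ps5, with 0 to 2 short reads per library, cannot show a change of this size at its depth: 0 of 17 reads allow a share of up to 17.6%. Intervals and limits cover counting error only.

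Rps2-ps10 had the lowest mean share of short tails and the most reads. At 24 h its shares were 0.233%, 0.228% and 0.204% in siCtl and 0.178%, 0% and 0.257% in siLarp1 (log2 odds -0.50, SE 0.70, adjusted p = 0.969), and 0 of 1239 reads allow a share of up to 0.242%. At 48 h they were 0.42% and 0.33% in siCtl and 1.00% and 1.08% in siLarp1, which do not overlap (log2 odds 1.46, SE 0.55, adjusted p = 0.269). The siLarp1 effect on the short share differed between 48 h and 24 h by 1.90 on the log2 odds scale for Rps2-ps10, which did not pass over all genes (adjusted p = 0.880, unadjusted p = 0.0180). None of 2719 genes (0%) passed this test of the difference between times, and 130 had an unadjusted p under 0.05. The other 6 copies had differences of -0.29 to 0.44.

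Pooled over all copies, short tails made up 1.23%, 1.16% and 1.39% of the reads in siCtl and 1.19%, 2.49% and 2.73% in siLarp1 at 24 h, so that siLarp1 library 19 lay within the siCtl range and the other two above it. At 48 h they made up 1.74% and 1.53% in siCtl and 3.56% and 2.63% in siLarp1. Without Rps2-ps10, a choice made after seeing the data, the shares were 2.31%, 2.03% and 2.61% against 2.28%, 4.87% and 5.33% at 24 h, and 3.07% and 2.72% against 6.57% and 4.71% at 48 h. The ribosomal protein genes had 1.84%, 1.67% and 1.85% against 2.93%, 3.15% and 3.17% at 24 h, without overlap in any library, and 2.74% and 2.27% against 4.48% and 4.16% at 48 h. All other mRNA genes had 2.27% to 2.75% in siCtl and 2.35% to 3.18% in siLarp1 at 24 h, and 3.08% and 3.06% in siCtl against 4.10% and 3.06% in siLarp1 at 48 h. The siLarp1 library 24, with the highest pooled share on the copies, was thus also the highest over all other genes, and its part in the copies' values was not tested.

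**Figure D5:**
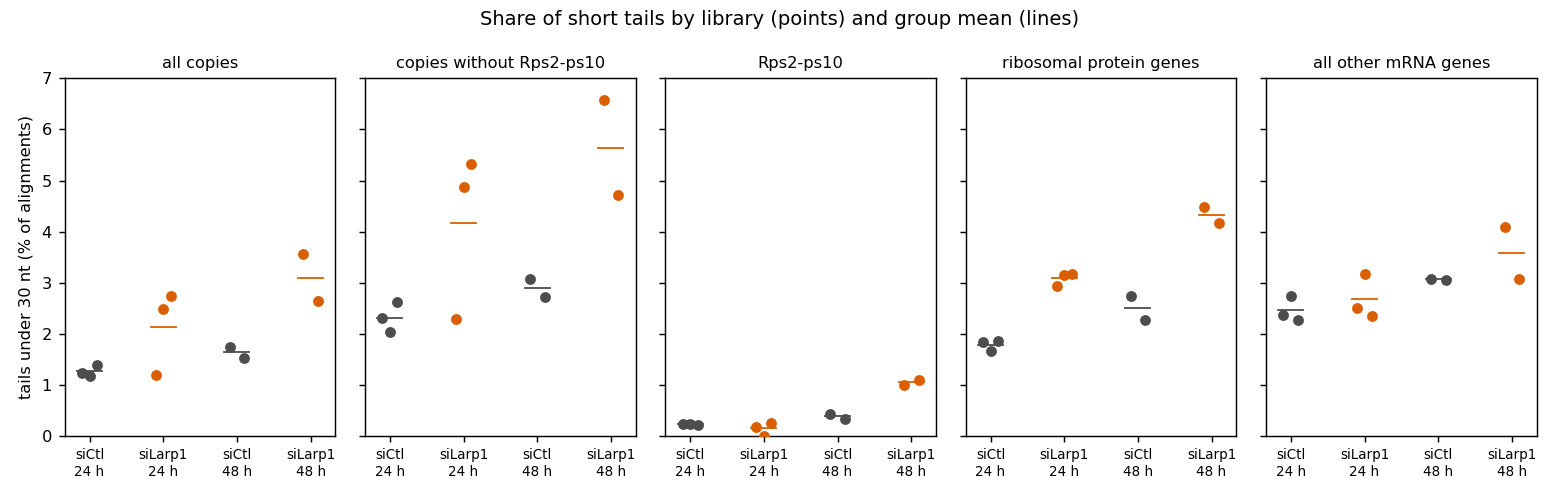
Share of tails under 30 nt (% of alignments) in each library (points) with the group mean (line) for all copies, all copies without Rps2-ps10, Rps2-ps10 alone, the ribosomal protein genes and all other mRNA genes. At 24 h the copies of 1 siLarp1 library (19, at 1.19%) lie within the siCtl range of 1.16% to 1.39%, whereas its ribosomal protein genes lie above.

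Tails of 30 to 90 nt, the range around the 60-nt class that the study follows, gave the only call on a copy. In this class 6 of 4828 genes were called at 24 h (0.124%), all higher in siLarp1 and 4 of them ribosomal protein genes, and 0 of 2725 at 48 h (0%), where 194 had an unadjusted p under 0.05. The copy called was Rps2-ps10. Its share of tails of 30 to 90 nt was 32.6%, 31.2% and 33.0% in siCtl and 39.5%, 37.3% and 35.9% in siLarp1 at 24 h, without overlap (log2 odds 0.32, SE 0.06, adjusted p = 0.000561). The call was lost without siLarp1 library 19 (log2 odds 0.27, adjusted p = 0.157) and with the library number as a block (adjusted p = 0.448). At 48 h the shares were 40.6% and 39.3% in siCtl and 43.9% and 42.9% in siLarp1, again without overlap (log2 odds 0.22, SE 0.08, adjusted p = 0.692). In Rps2 the share was 38.7% ± 2.47 in siCtl and 39.3% ± 9.91 in siLarp1 at 24 h (SD, n = 3). The other 6 copies had log2 odds of -0.73 to 0.24 at 24 h and of -0.99 to -0.01 at 48 h, none called. The median over all genes was -0.08 at 24 h and -0.18 at 48 h.

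The median tail of a copy was not called at either time. No gene passed in this test (0 of 4520 at 24 h, with 261 at an unadjusted p under 0.05, and 0 of 2681 at 48 h, with 152, both 0%). At 24 h, 4 of the 7 copies had an unadjusted p under 0.05, all lower in siLarp1, as were 102 of the 261 over all genes. Rpl9-ps6 had 80.4, 89.9 and 82.0 nt in siCtl and 75.2, 73.5 and 72.8 nt in siLarp1 (difference -10.69 nt, SE 2.99, adjusted p = 0.427), and Rps13-ps1, with its values given above, differed by -10.19 nt (SE 4.06, adjusted p = 0.765). Rps26-ps1 had 97.2, 98.1 and 93.6 against 91.3, 88.4 and 91.9 nt (adjusted p = 0.749), and Rps2-ps10 had 106, 107 and 105 against 100.0, 100.4 and 104 nt (adjusted p = 0.584). The parents of the 4 copies differed by -3.62 nt (Rps13) to 1.97 nt (Rps2), and over all genes the median difference was 1.51 nt. The 82 ribosomal protein genes had a median difference of -3.07 nt, with 69 below 0 and 23 lower at an unadjusted p under 0.05, beside a median of -4.19 nt and 6 below 0 for the 7 copies. At 48 h none of the 7 copies had an unadjusted p under 0.05, and the estimates ran from -4.39 nt for Rpl36-ps12 to 22.36 nt for Rps18-ps5.

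Reads per copy were likewise not called between siLarp1 and siCtl. No gene passed at 24 h (0 of 4828, 261 at an unadjusted p under 0.05) or at 48 h (0 of 2725, 131), both 0%. Rps2-ps10 differed by 0.08 on the log2 scale at 24 h (SE 0.04, adjusted p = 0.878) and by 0.23 at 48 h (SE 0.06, adjusted p = 0.639). With the library number as a block it passed at both times (adjusted p = 0.0399 and 0.0226). Rpl36-ps12 differed by 0.41 (SE 0.17, adjusted p = 0.866) and 0.39 (SE 0.20, adjusted p = 0.890), Rps26-ps1 by 0.08 (SE 0.06, adjusted p = 0.975) and -0.22 (SE 0.10, adjusted p = 0.890), and Rps18-ps5 by -0.12 and -0.68 (SE 0.32, adjusted p = 0.890 at 48 h). Rpl9-ps6, Rpl10-ps3 and Rps13-ps1 had estimates between -0.16 and 0.05. The median of the 7 copies was 0.03 at 24 h and -0.01 at 48 h, that of the 82 ribosomal protein genes -0.01 and -0.14 and that of all genes 0.01 and 0.02. No gene passed the test of a difference between the times (0 of 2719, 112 at an unadjusted p under 0.05, 0%).

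Below the 7 copies the reads thinned out at once. Rpl21-ps15 had 22 reads, Rps2-ps13 21, Rpl36a-ps1 19, Rpl29-ps2 17 and Rps15a-ps4 13, and at most 1 read of each had a mapping quality of 10 or more. Rpl21-ps15 (chrX:151215167-151215649) and Rps2-ps13 (chrX:52898588-52899469) keep the reading frame of the parent, as does Rpl36a-ps1 (chr14:98993870-98994318), which has a closing run of 7 A. Rpl29-ps2 has 2 exons and an identity of 88.7% with Rpl29, and Rps15a-ps4 one of 89.8% with Rps15a. The 78 copies with fewer than 30 reads together stood at 82.4 to 177 RPM, with 12 to 72 reads per library and median tails of 78.8 to 105 nt. Their short tails numbered at most 2 in a library, too few to compare siLarp1 with siCtl.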

How the data were processed

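Direct RNA reads of P19 cells were measured in 10 libraries. The deposited table holds 1 line per read and aligned transcript, with no filter on quality applied. According to the methods of the authors, reads were base called with Guppy, demultiplexed with Deeplexicon and aligned with Minimap2 (version 2.20) to GENCODE vM17 transcripts of mm10, and tail lengths in nt were estimated by Nanopolish. The deposited mapping quality is a score from 0 to 60, and the barcode confidence is a fraction from 0 to 1 that the authors took from the demultiplexer.

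Alignments of class mRNA with the quality tag PASS were kept and tallied per gene and library from these lines, since no tallies per gene were used here. Library groups came from the condition given on each line together with the labels. A parent is the gene name before "-ps", with Rps3a read as Rps3a1 and Rps4 as Rps4x. The share of tails under 30 nt and of 30 to 90 nt was fitted per gene and time point by a quasi-binomial logistic model, with a dispersion of at least 1 moderated with limma, whose prior was estimated from genes with at least 10 reads in the class. Median tails (libraries with at least 3 reads, weighted by reads) were fitted with limma and reads with limma voom, library size being the kept alignments. Genes needed 30 reads at the time point, and p-values were adjusted by Benjamini-Hochberg over all genes. Tools were R 4.3.3, limma 3.58.1, scipy 1.17.1, pandas 2.3.3 and Biopython 1.88. The models were tested on simulated data. Copies were compared with parents by an exact sign-flip permutation test. Named were the 12 copies with the most reads and their parents, the 5 copies with the most reads of mapping quality of at least 10, and any copy called over all genes. The members, lists and tests were chosen with earlier results of these data known. Copy transcripts were taken from GENCODE vM21 (GRCm38, the same build), found for 83 of the 85 copies, and aligned to the parent. Alternatives changed the mapping quality, barcode confidence, quality tag, tail limits, read minimum, scaling, model and libraries.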

Additional observations from a re-analysis of the deposited data

How the results depend on the processing

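The count of genes with a changed share of short tails depended on the settings, and the cause was not tested. At 24 h the 8 calls became 0 with mapping quality of at least 10 (137 genes at an unadjusted p under 0.05), 4 with barcode confidence of at least 0.9, 2 with reads of a single alignment, 16 with at least 100 reads, 18 with all 10 libraries in 1 fit, 0 with all quality tags (210 unadjusted), 1 and 41 with limits of 20 and 40 nt, 0 with limma on log2 odds (483 unadjusted), and 0 to 9 when 1 library was left out (0 without siLarp1 library 19, with 168 unadjusted). At 48 h the 11 calls became 27 with at least 100 reads, 1 under 20 nt, 0 with limma on log2 odds (278 unadjusted), and 0 to 11 when 1 library was left out (0 without siCtl library 25, with 89 unadjusted, 1 without siLarp1 library 24 and 7 without siCtl library 24). No copy was called in these, except Rps2-ps10 at 48 h with tails under 40 nt (1 copy, adjusted p = 0.00825).

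For tails of 30 to 90 nt, leaving out 1 library gave 2 to 13 calls at 24 h (13 without siCtl library 22), 0 to 1 of them a copy, and 0 to 2 at 48 h. Median tails gave 0 to 2 calls at 24 h and 0 to 3 at 48 h, and 2 at 24 h with mapping quality of at least 10. Reads gave 0 to 2 at 24 h and 0 at 48 h.

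The library number was also fitted as a replicate block. It left 0 calls of short tails (100 unadjusted) and 0 of tails of 30 to 90 nt (212 unadjusted, 0 copies) at 24 h, and gave 4 of median tails at 24 h and of reads 17 at 24 h and 4 at 48 h, of which 1 copy, Rps2-ps10, at each time. Deviations of same-numbered libraries correlated by 0.0209, 0.111 and 0.109 at 24 h and by 0.0457 at 48 h, not all over 0.1, so the numbers were not taken as a pairing. At 24 h each library correlated best with its own number, a hint from the data only. Same-numbered libraries of 24 h also had the same barcode in both treatments, so number and barcode cannot be told apart there. At 48 h their barcodes differed.

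Of the copy-to-parent tests on short tails, 3 passed (2 copies), against 0 (0) with mapping quality of at least 10, 0 (0) under 20 nt, 7 (5) under 40 nt and 0 (0) in siCtl alone. Among the 5 copies under 40 nt, Rps2-ps10 was lower than its parent (-4.12 percentage points, exact permutation test, adjusted p = 0.0251). Barcode confidence of at least 0.9 kept the count at 3 (2), with Rpl9-ps6 called in place of Rpl36-ps12. The difference of Rpl36-ps12 turned to -0.0276 percentage points with mapping quality of at least 10. On median tails 8 passed (6 copies), against 7 (5) with barcode confidence of at least 0.9, where Rps18-ps5 was lost, and 0 (0) in siCtl alone, where no p could pass.

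Pooled over the copies, siLarp1 minus siCtl was 0.877 percentage points of short tails at 24 h (0.581 to 1.35 when 1 library was left out, 0.252 under 20 nt, 1.66 under 40 nt) and 1.46 at 48 h (0.996 to 1.92, 0.458 under 20 nt). Tails of 30 to 90 nt differed by 3.47 at 24 h (2.60 to 4.57) and -0.241 at 48 h (-1.04 to 0.558, 1.25 with mapping quality of at least 10). Median tails differed by -4.66 nt (-5.51 to -4.08) and -1.19 nt (-2.30 to -0.0850), and levels by 810.0 RPM (391 to 1118) and 911 (521 to 1302, 1411 with mapping quality of at least 10). Chosen after seeing the data, leaving out Rps2-ps10 gave 1.84 and 2.75 points of short tails, 1.68 and -3.40 points of tails of 30 to 90 nt, 1.53 nt at 48 h and -514 RPM at 48 h. An unweighted mean of the 7 copies gave 2.31, 2.79, -0.621 and -4.87 points and 2.88 nt at 48 h.

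Of 835 alternatives for single copies, 812 had the same outcome as the main setting, mostly results that were called in neither. A call was lost in 15, gained in 7 and lost with a change of sign in 1. The sign changed in 58 estimates. Depth limits copies with few reads, and mapping quality limits 5 of the 7. For Rps2-ps10 and Rps26-ps1, whether reads came from the copy or the parent was not tested.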
